A study of Rattus norvegicus with 12 samples.

Results

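Normal Rat Kidney (NRK) cells are an established adherent line from rat kidney, labelled epithelial in the deposited records. The study's own text calls its cells fibroblastic in some places and epithelial in another. RNA-seq was run on WT cells and on VAMP7KO and ATG5KO cells, in 4 replicates per genotype, numbered 1 to 4. The knockout lines were made with CRISPR and single-cell sorting, so each is 1 clone, and all 3 lines were grown in complete medium with no treatment. The 12 libraries were divided by number into 2 sets of 6, replicates 1 and 2 against replicates 3 and 4, with 2 libraries of every genotype in each set. The labels do not say what the numbers stand for, and the sets were compared as labelled. What separates the sets (a culture, a day, a preparation) is not given in the sources used here. The study's methods name an adjustment for batch in its own tests without defining it, and whether that batch is the set is not stated. Any such cause cannot be told apart from the set itself.

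VAMP7 is a vesicle SNARE protein of late endosomes that drives their fusion with the cell surface, and ATG5 is needed to build autophagosomes. The sets hold each genotype in equal number, so a difference shared by all genotypes is not one of genotype composition. Whether it lies in the cells or in the handling of the libraries cannot be told. Several of the gene groups described below are wired to known regulators: E2F factors drive genes of DNA replication as cells enter S phase, PPARs drive the genes of fatty acid oxidation, and AP-1 sites lie in the promoters of secreted matrix proteases. These are textbook roles and not results of the data.

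Library totals ran from 21090858 to 31525111 counts. Their median was 27780687.5 for replicates 1 and 2, against 28013196.5 for the other set (exact permutation test within genotype, 2-sided p = 0.694). A library of replicates 1 and 2 had counts for a median of 16360 genes, and one of the other set for 16120 (exact permutation p = 0.0463, smallest p possible 0.00926). A count of 3, taken as the floor, stood for 0.0952 to 0.142 CPM (counts scaled to the library total), and it covers counting error only. Levels below are CPM scaled by TMM and are compared between libraries for 1 gene or 1 summed list. CPM is not scaled by transcript length, so levels of different genes are not ranked. Signed values beside a gene are log2 fold changes of replicates 3 and 4 over replicates 1 and 2, and a value given as higher by an amount is on the same scale. The table carries Ensembl identifiers, and symbols were known for 1942 of the 13860 genes tested, those that the study listed as changed in a knockout. Vamp7 stood at 108 to 115 CPM in the WT libraries and at 124 to 131 CPM in ATG5KO. In VAMP7KO it stood at 50 and 51.3 CPM in replicates 1 and 2 and at 41.4 and 42.2 CPM in replicates 3 and 4, below every library of the other lines in both sets, as its label has it. An edited gene can still be transcribed, so the transcript level is a partial check. Atg5 was not analysed here, since its identifier was not known.

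The sets separated in every genotype, and the gap was far wider than that between libraries of 1 set. Genotype took 55.3% of the variance of log2 CPM summed over genes, the set 32.8%, the part of the set difference that depended on genotype 7.72%, and the spread between the 2 libraries of a genotype and set 4.16%. For 45.8% of genes the set took more variance than the genotype. On the second principal component, which held 27.9% of the variance of the 2000 most variable genes, each genotype's replicates 3 and 4 lay above its replicates 1 and 2. ATG5KO stood apart from the other genotypes on the first component, at 49%.

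**Figure D1:**
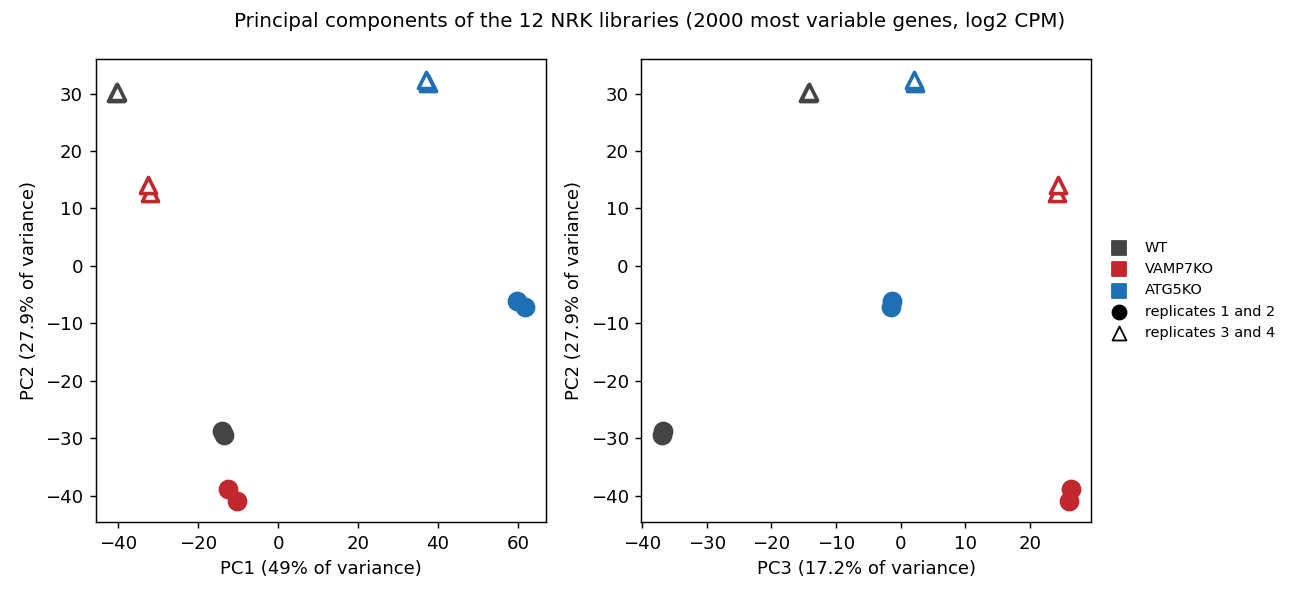
Principal components of log2 CPM over the 2000 most variable genes, with 1 point per library; colour gives the genotype, filled circles are replicates 1 and 2 and open triangles are replicates 3 and 4. Within each genotype the triangles lie higher on PC2 (27.9% of the variance) than the circles, and the 2 libraries of a genotype and set lie close together.

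Libraries of the same genotype and set were not copies of each other. Their mean chi-square per gene, which is 1 where reads differ by counting error only, was 12 to 25.6 between replicates 1 and 2 and 3.1 to 4.71 between replicates 3 and 4. Across sets it was at least 126. The medians over genes were far lower than these means, at 2.035 to 3.301 between replicates 1 and 2 and 1.125 to 1.288 between replicates 3 and 4. Across sets the median was at least 14.06. How independent the 2 libraries of a genotype and set were was not tested. The biological coefficient of variation (the spread beyond counting error, from edgeR's common dispersion) was 8.54% in replicates 1 and 2 against 3.81% for the other set. In each genotype it was larger in replicates 1 and 2, at 6.7% against 3.31% in WT, 9.93% against 4.3% in VAMP7KO and 8.87% against 3.79% in ATG5KO.

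With genotype as a term, 8524 of 13860 genes (61.5%) differed between the sets at an adjusted p under 0.05 (edgeR's quasi-likelihood test, Benjamini-Hochberg). Of these, 4054 were higher (29.2% of genes tested) and 4470 were lower (32.3%) in replicates 3 and 4. Large differences were mostly in 1 direction, since 1512 genes were lower by a fold of 2 or more (10.9%) and 656 were higher by that much (4.73%). In 6223 genes (44.9%) both libraries of one set lay above both of the other, in the same direction, in all 3 genotypes. The p-values of this fit measure the spread left after genotype and set. That spread mixes differences between libraries with differences between genotypes in the size of the set change. Each genotype has 1 pair of sets. When the 2 libraries of a set were summed within a genotype, so that 3 genotypes stood for 3 pairs, 4517 genes differed, 2226 of them higher and 2291 lower.

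Genes with a symbol are not a random draw of the table. Of them, 51.4% differed between the sets (26.6% by a fold of 2 or more) against 63.1% of genes without a symbol, and the direction was lopsided, with 13.2% higher and 38.2% lower in replicates 3 and 4. Their median log2 fold change was -0.38, against -0.03 over all genes tested. Every list below holds only its members with a symbol. Counts for gene groups are therefore set beside the 13.2% and 38.2% of genes with a symbol.

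The named genes with the largest shared increase led with Il1rl1, which encodes ST2, a receptor of the interleukin-1 receptor family. Its level was 0.661 and 0.847 CPM in WT replicates 1 and 2 and 22 and 25.4 CPM in WT replicates 3 and 4. VAMP7KO went from 0.367 and 1.12 CPM to 49.2 and 51.5 CPM, and ATG5KO from 10.7 and 14.1 CPM to 210 and 215 CPM. The libraries of the sets did not overlap in any genotype, which was a condition for naming the genes with the largest shared changes. The log2 fold change was 4.75 (SE 0.25, adjusted p = 1.23e-08). ATG5KO was the highest line in both sets, while WT and VAMP7KO overlapped in replicates 1 and 2 and were apart in replicates 3 and 4.

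Mmp3, the secreted matrix protease stromelysin, was higher by 2.96 on the log2 scale (SE 0.29, adjusted p = 1.9e-06). Its level was 123 and 127 CPM in WT replicates 1 and 2 and 491 and 532 CPM in WT replicates 3 and 4. In VAMP7KO the pairs were 2.06 and 2.12 CPM against 47.7 and 53.8 CPM, and in ATG5KO 142 and 153 CPM against 1100 and 1120 CPM. The VAMP7KO change was the widest of these, at 4.6 on the log2 scale beside 2.03 in WT and 2.91 in ATG5KO, and the 3 changes differed from each other (interaction adjusted p = 1.37e-09).

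Ptgr1, a reductase that inactivates prostaglandins and leukotriene B4 and is a known target of NRF2, was higher by 2.33 (SE 0.11, adjusted p = 3.43e-09). It went from 14.1 and 15.9 CPM to 91.4 and 96.7 CPM in WT, from 24 and 25 CPM to 117 and 141 CPM in VAMP7KO, and from 97.4 and 127 CPM to 443 and 454 CPM in ATG5KO. The sets were apart in each genotype, as the choice of genes required, and the changes in that order were 2.65, 2.39 and 1.99 on the log2 scale (interaction adjusted p = 0.00871).

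Several of the other leading genes encode membrane transport proteins. Aqp1, a water channel of the kidney tubule, was at 147 and 167 CPM in WT replicates 1 and 2 and at 327 and 349 CPM in replicates 3 and 4, and it was far lower in both knockouts, where it went from 0.916 and 1.95 CPM to 9.82 and 10.4 CPM in VAMP7KO and from 5.07 and 6.72 CPM to 33.2 and 34.4 CPM in ATG5KO. Slc14a1, a urea transporter, went from 3.2 and 3.39 CPM to 29.5 and 31.2 CPM in WT and from 0.828 and 1.27 CPM to 3.2 and 4.15 CPM in ATG5KO, while its VAMP7KO libraries were near or below the floor throughout. Nalcn, a sodium leak channel, was at 0.244 to 0.65 CPM in the 6 libraries of replicates 1 and 2 and reached 4.14 and 4.81 CPM in VAMP7KO replicates 3 and 4. Their shared log2 fold changes were 1.94, 2.64 and 2.39.

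The rest of the 12 were low in at least 1 genotype. RGD1565462 was higher by 3.66 (SE 0.18) and reached 101 CPM in both ATG5KO replicates 3 and 4, from 6.47 and 8.65 CPM in replicates 1 and 2. Actg2, the gamma actin of smooth muscle, was higher by 2.84 (SE 0.4) and reached 10.4 and 14.9 CPM in VAMP7KO replicates 3 and 4 only, its other libraries being at 1.14 CPM or less. Ms4a6bl was higher by 2.46, with 15.2 and 15.5 CPM in VAMP7KO replicates 3 and 4 against 0.397 and 0.596 CPM in replicates 1 and 2. Chi3l1, a secreted chitin-binding glycoprotein, was higher by 2.42 and stood above 1 CPM in ATG5KO alone, at 1.7 and 1.88 CPM against 11 and 11.3 CPM. Jaml, an adhesion molecule, and Ido2, an enzyme of tryptophan breakdown, were higher by 2.16 and 2 and did not exceed 4.37 CPM. Jaml no longer passed the test without the WT libraries (log2 fold change 0.99, adjusted p = 0.0769).

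**Figure D2:**
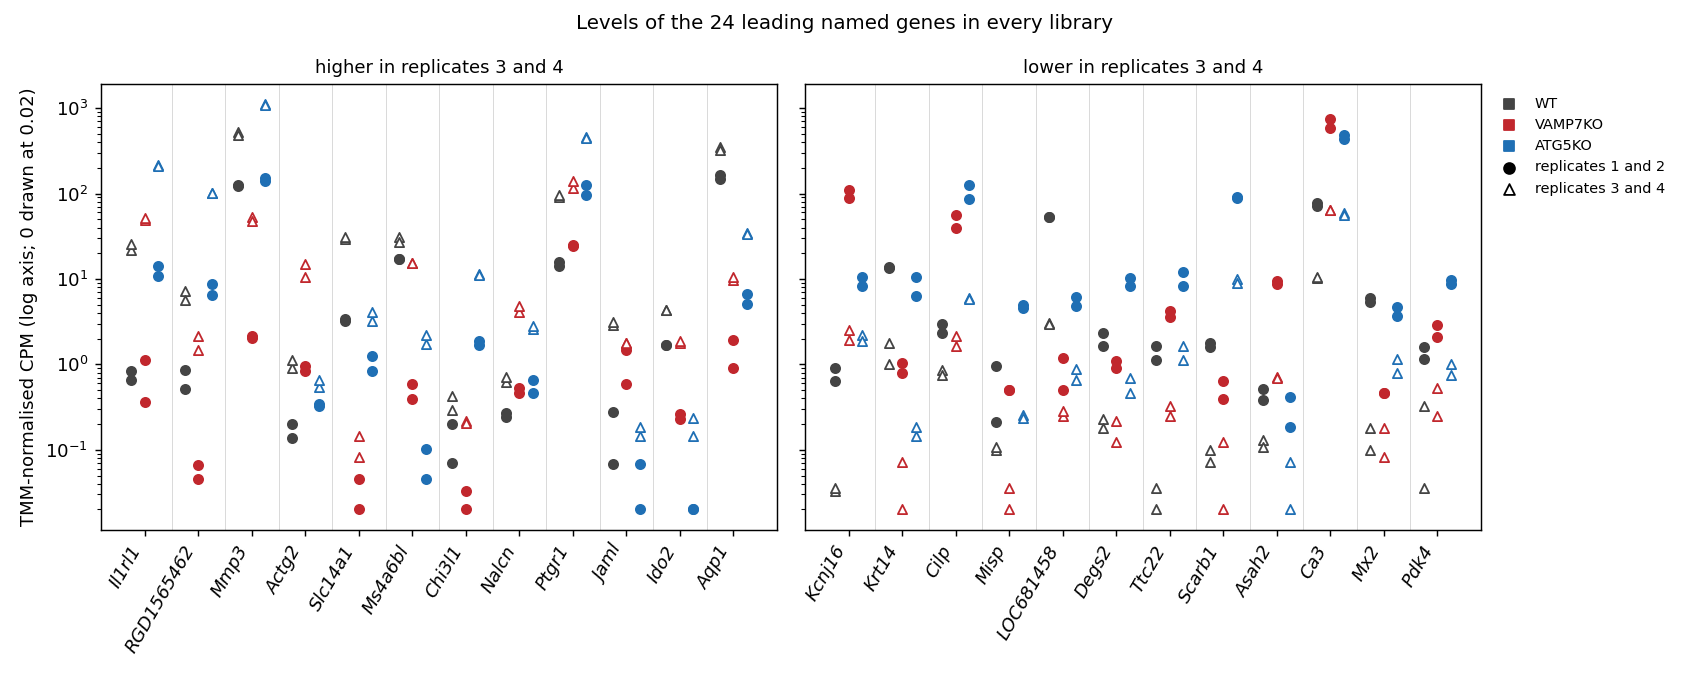
TMM-normalised CPM on a log axis in every library for the 12 genes with the highest (left) and the 12 with the lowest (right) shared log2 fold change; colour gives the genotype, filled circles are replicates 1 and 2, open triangles are replicates 3 and 4, and a value of 0 is drawn at 0.02. Triangles and circles of 1 genotype do not cross for any of the 24 genes, as the choice of genes required.

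The largest shared decreases began with Kcnj16, a subunit of inward rectifier potassium channels of the kidney tubule. In VAMP7KO it was at 88.4 and 109 CPM in replicates 1 and 2 and at 1.94 and 2.55 CPM in replicates 3 and 4, and in ATG5KO at 8.28 and 10.5 CPM and 1.86 and 2.18 CPM. WT libraries were at 0.905 CPM or less. The log2 fold change was -4.02 (SE 0.49, adjusted p = 1.43e-05), and VAMP7KO stood far above ATG5KO in replicates 1 and 2 and level with it in replicates 3 and 4.

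Ca3, a carbonic anhydrase abundant in muscle and fat, was lower in every line, as the choice of genes required. It went from 72.1 and 77.7 CPM to 10.2 and 10.5 CPM in WT, from 589 and 754 CPM to 63.3 and 63.8 CPM in VAMP7KO, and from 435 and 478 CPM to 56 and 59 CPM in ATG5KO. The log2 fold change was -3.09 (SE 0.096, adjusted p = 1.81e-10, the lowest adjusted p among the 24 genes), and within genotypes it was -2.86, -3.4 and -2.99 (interaction adjusted p = 0.0131).

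Cilp, a secreted protein of cartilage matrix, went from 39.4 and 56.5 CPM to 1.65 and 2.16 CPM in VAMP7KO and from 87.2 and 125 CPM to 5.87 and 6.06 CPM in ATG5KO, with WT at 0.746 to 2.98 CPM. Krt14, the keratin of basal epithelial cells, went from 13.3 and 13.7 CPM to 1.02 and 1.78 CPM in WT and from 6.39 and 10.6 CPM to 0.145 and 0.186 CPM in ATG5KO. Scarb1, the receptor for high-density lipoprotein, went from 88.3 and 90.2 CPM to 9 and 9.88 CPM in ATG5KO and was at 1.77 CPM or less elsewhere. Their log2 fold changes were -3.91, -4.02 and -3.33. Each was lower in all 3 lines, as the choice of genes required, although 1 or 2 lines held most of the transcript.

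A pair of enzymes of sphingolipid metabolism were among the 12. Degs2, which hydroxylates or desaturates ceramide precursors, was lower, at -3.47, with 8.37 and 10.3 CPM against 0.466 and 0.69 CPM in ATG5KO. Asah2, the neutral ceramidase, was lower at -3.21, with 8.75 and 9.42 CPM against 0.699 and 0.719 CPM in VAMP7KO. Pdk4, the kinase that holds back pyruvate dehydrogenase when cells burn fat, was lower at -3.04 and went from 8.73 and 9.8 CPM to 0.746 and 1.02 CPM in ATG5KO. Mx2, an interferon-induced GTPase, was lower at -3.08, with WT at 5.39 and 6 CPM against 0.0982 and 0.178 CPM, the last of which are at about the floor. LOC681458, Misp and Ttc22 completed the list, with log2 fold changes of -3.47, -3.76 and -3.44. LOC681458 was at 52.5 and 53.5 CPM in WT replicates 1 and 2 and at 2.95 and 3.01 CPM in replicates 3 and 4.

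Some of these calls lean on the genotype term, because levels differ so much between lines. Without it Mmp3, Slc14a1, Ms4a6bl, Chi3l1, Jaml, Ido2, Aqp1 and Scarb1 missed the threshold, with adjusted p from 0.0751 for Mmp3 to 0.501 for Aqp1. Among genes described further on, so did Asf1b, Tk1, Lum, Nid2, Col1a1, Col3a1, Prelp, Mmp10, Mmp28, Slc27a6, Acadsb, Thbs1, Lmod1, Angpt1, Ptn, Cxcl12, Fgf1, Parp10, Ikbke, Lcn2, Rgs2, Ak4, Sesn2, Usp2, Npas2, Eda2r, Cfi, Gmnn, Trpv2, AC130970.1, Ppl, RT1-Da and RT1-Db1. With the libraries of each set summed, Ms4a6bl and Jaml missed it (adjusted p = 0.0504 and 0.0592), and so did Fignl1, Pola2, Tk1, Gmnn, Thbs1, Mmp10, Sesn2, Eda2r, AC130970.1, RT1-Da and RT1-Db1, at up to 0.376 for RT1-Db1.

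Within single genotypes, 8290 genes differed between the sets in WT (59.8%), 7448 in VAMP7KO (53.7%) and 6926 in ATG5KO (50%), and 4124 differed in all 3 in 1 direction, 2093 higher and 2031 lower. Of the 8524 genes called in the shared comparison, 92.9% had the same sign in all 3 lines. The size of the set difference nevertheless depended on genotype for 4373 genes (31.6% of genes tested), and 1483 of these had no call in the shared comparison. For 5634 called genes no dependence on genotype was called.

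**Figure D3:**
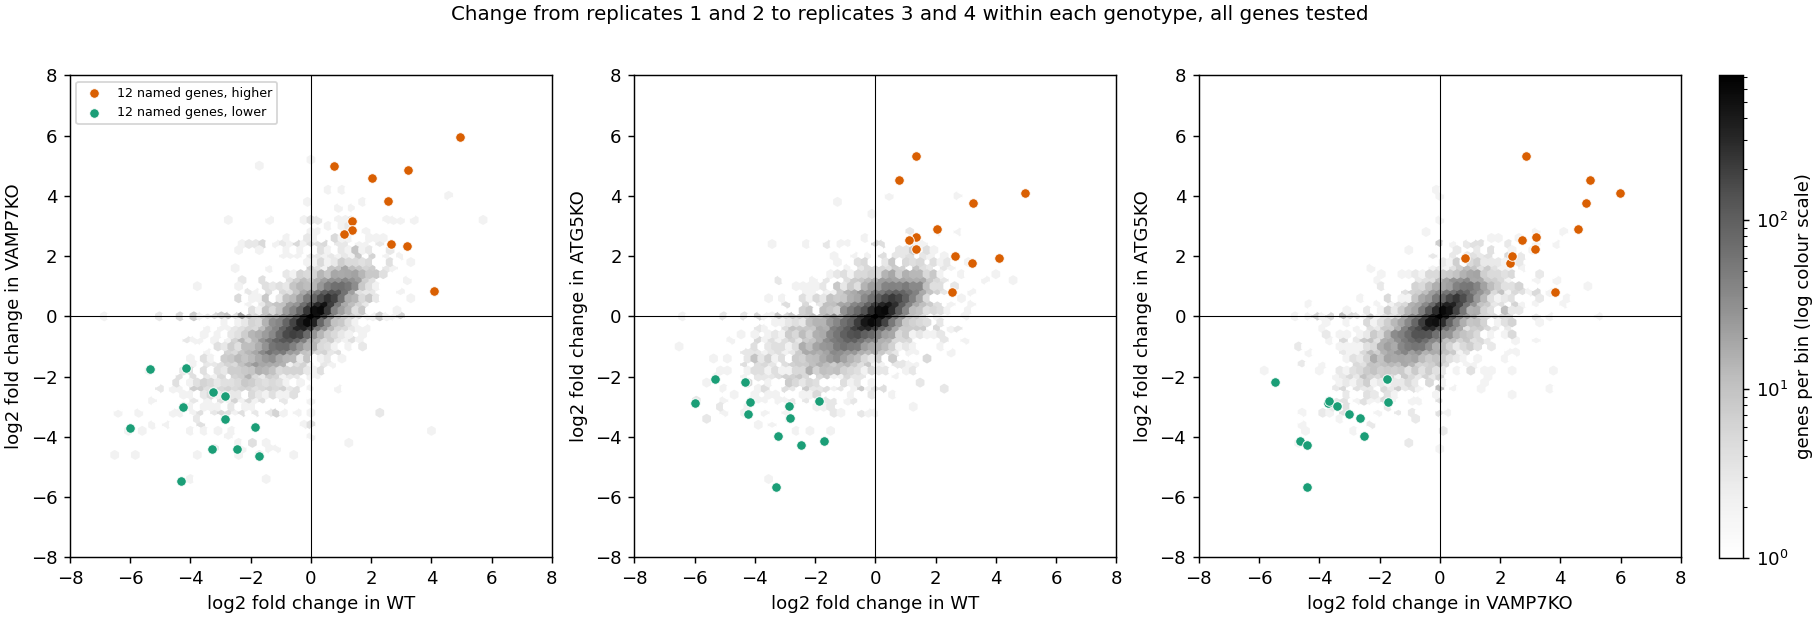
Log2 fold change of replicates 3 and 4 over replicates 1 and 2 in one genotype (x axis) against another (y axis) for the 13860 genes tested, in bins shaded by the number of genes on a log scale, with the 24 named genes in colour. The cloud runs along the diagonal, and each of the 24 named genes lies on the same side of 0 in all 3 genotypes, as the choice of genes required.

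The change in the genes of DNA replication that could be named depended on genotype. The list has 45 members, of which 20 had a symbol, and a symbol means that the study had listed the gene as changed in a knockout on these same libraries; the others were not analysed here. Of the 20 tested, 5 were higher (25%), 3 were lower (15%) and 12 did not pass in the shared comparison. The shares of genes with a symbol were 13.2% higher and 38.2% lower. The interaction was called for all 20, beside 31.6% of all genes and 38.9% of genes with a symbol. The change was positive for 3 of 20 in WT, 13 of 20 in VAMP7KO and 18 of 20 in ATG5KO. In 18 of 20 it ran in the order WT, VAMP7KO, ATG5KO, an order found in 23% of all genes tested. That share was not computed for genes with a symbol alone, so here a selected group stands beside an unselected one. Summed over the 20 members, the level was 867 and 871 CPM in WT replicates 1 and 2 and 595 and 587 CPM in WT replicates 3 and 4. In VAMP7KO the sums were 1093 and 908 CPM against 1086 and 1035 CPM, which overlapped. In ATG5KO they were 999 and 1241 CPM against 1968 and 1904 CPM, so that the group was lower in WT and higher in ATG5KO in the same sets.

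Cdc6, which loads the replicative helicase, was higher by 1.63 (SE 0.28, adjusted p = 0.000215) and did not overlap between the sets in any genotype. It went from 18.8 and 19.3 CPM to 25.2 and 26.1 CPM in WT, from 12.6 and 15.8 CPM to 45.8 and 55.8 CPM in VAMP7KO, and from 16.3 and 22.1 CPM to 114 and 116 CPM in ATG5KO. In replicates 1 and 2 all 3 lines stood between 12.6 and 22.1 CPM, and in replicates 3 and 4 their pairs were apart. Dtl, an adaptor of the ubiquitin ligase that removes licensing factors in S phase, followed the same order, with changes of 0.27, 1.2 and 2.35. Pola2, a subunit of DNA polymerase alpha, changed by -0.05, 0.79 and 1.38, and Fignl1, a recombination factor, by 0.14, 0.62 and 1.61.

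Asf1b, a histone chaperone, was lower in every genotype, at -1.43 overall (SE 0.26, adjusted p = 0.000379). It was at 55.1 and 57.2 CPM against 8.88 and 9.56 CPM in WT, at 64.6 and 80.7 CPM against 28.4 and 29.5 CPM in VAMP7KO, and at 80.1 and 105 CPM against 61.9 and 69.2 CPM in ATG5KO, and its changes kept the order of the group. Tk1, thymidine kinase, was lower at -0.32 (SE 0.09), with changes of -0.63, -0.11 and -0.24 in WT, VAMP7KO and ATG5KO, and this call was lost without the WT libraries (log2 fold change -0.19, adjusted p = 0.148). Cenpu, a kinetochore protein and the one mitosis gene that could be named, went from 23.4 and 24.7 CPM to 5.96 and 6.36 CPM in WT and from 21.8 and 28.4 CPM to 38.5 and 39.7 CPM in ATG5KO, with VAMP7KO overlapping at 20.8 to 25.8 CPM. Its shared change did not pass (log2 fold change -0.42, adjusted p = 0.276), since the genotypes went opposite ways.

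The start-proximal sequence of these genes was read for the E2F motif because the members moved together in order. RefSeq promoters of build GRCr8, 250 bases before to 50 bases after the annotated start, were matched by symbol for 16 of the 20 members. The words TTTGGCGC and TTTCGCGC were searched on both strands, and 4 of the 16 held a match (Dtl, Tcf19, Clspn and Gmnn) beside 0.792% of all 33469 promoters of the table. Windows of 60 bases around the match are given for Dtl and Tcf19, in which it lies 44 and 113 bases before the start, with the match in capitals. They are on chr13:105685932-105685991, minus strand, and chr20:3223325-3223384, plus strand.
Dtl: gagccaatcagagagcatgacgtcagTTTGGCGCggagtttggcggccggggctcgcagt
Tcf19: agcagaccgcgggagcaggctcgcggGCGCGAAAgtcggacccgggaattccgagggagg
Members with a match did not share 1 direction. Tcf19 changed by -0.58, -0.07 and 0.51 in WT, VAMP7KO and ATG5KO, Clspn by -1.07, 0.52 and 1.54, and Gmnn, the licensing inhibitor geminin, by -0.5, -0.8 and 0.1. Tcf19, Clspn and Gmnn were singled out after their values were seen. A match is a description of letters, and binding was not measured.

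**Figure D4:**
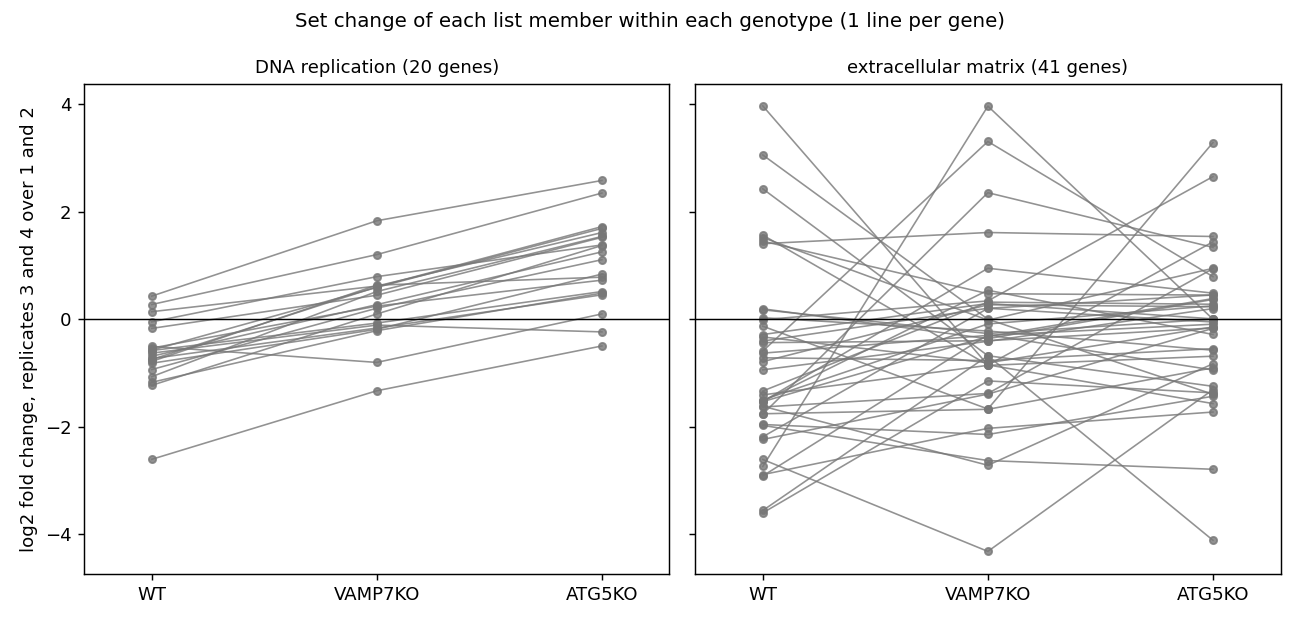
Log2 fold change of replicates 3 and 4 over replicates 1 and 2 (y axis) within WT, VAMP7KO and ATG5KO (x axis), 1 line per gene, for the 20 tested genes of DNA replication and the 41 tested genes of the extracellular matrix. In 18 of the 20 replication genes the change rises from WT through VAMP7KO to ATG5KO, while 12 of the 41 matrix genes (29.3%) do so.

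Structural genes of the extracellular matrix were lower more often than higher, 17 of 41 against 3 of 41, with 21 not called. That is 41.5% lower and 7.32% higher, close to the 38.2% and 13.2% of genes with a symbol, so the group as a whole did not stand out from them. Single members changed widely. Lum, the collagen-binding proteoglycan lumican, was lower at -2.57 (SE 0.11, adjusted p = 2.48e-09), with 260 and 319 CPM against 45.4 and 48.2 CPM in VAMP7KO, 118 and 121 CPM against 15.9 and 18.7 CPM in ATG5KO, and 5.8 and 6.16 CPM against 1.34 and 1.71 CPM in WT. Emilin1, an elastic fibre glycoprotein, was lower at -1.84 (SE 0.11) and Thbs3, a thrombospondin, at -2.18 (SE 0.15), in each genotype with no overlap.

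Col1a1, the main chain of type I collagen, went from 1230 and 1270 CPM to 463 and 480 CPM in WT, from 1410 and 1560 CPM to 795 and 845 CPM in VAMP7KO, and from 2550 and 2580 CPM to 1540 and 1650 CPM in ATG5KO. Its log2 fold change was -0.98 (SE 0.1, adjusted p = 3.64e-06). Col3a1 went from 176 CPM in both WT libraries to 56.7 and 57.9 CPM, from 1320 CPM in both VAMP7KO libraries to 195 and 207 CPM, and from 1010 and 1020 CPM to 565 and 579 CPM in ATG5KO. VAMP7KO was thus above ATG5KO for Col3a1 in replicates 1 and 2 and below it in replicates 3 and 4, an exchange of order among the genotypes (interaction adjusted p = 2.23e-10). Nid2, a basement membrane protein, was lower at -0.67 (SE 0.06), and Prelp, a basement membrane proteoglycan, was higher by 1.51 (SE 0.18), with ATG5KO at 17.6 and 24.1 CPM against 56.2 and 64.2 CPM.

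Proteases of the matrix and their inhibitors moved in both directions, 6 higher, 11 lower and 4 not called of 21. That is 28.6% higher and 52.4% lower, beside 13.2% and 38.2% of genes with a symbol. Plaur, the receptor for urokinase, was higher by 1.06 (SE 0.11). Mmp13, collagenase-3, went the other way from Mmp3, with 33.8 and 33.9 CPM against 2.38 and 2.82 CPM in WT and 10.7 and 11.8 CPM against 0.755 and 1.03 CPM in VAMP7KO. Its ATG5KO libraries were at 0.182 to 0.342 CPM and overlapped, and the log2 fold change was -3.42 (SE 0.3). Mmp2, gelatinase A, was lower at -3.02 and Mmp28 at -0.43. The ATG5KO libraries of Mmp2 were at 0 to 0.186 CPM, about the floor, and overlapped between the sets.

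These proteases were compared in sequence because their directions differed. The AP-1 word TGAGTCA, with TGACTCA on the other strand, was found in the promoters of 5 of the 15 members that matched by symbol, beside 4.63% of all 33469 promoters. The matches below lie 71, 61, 66 and 83 bases before the annotated start, in capitals within 59 bases on the plus strand, at chr8:12925184-12925242, chr8:12974620-12974678, chr8:12782737-12782795 and chr1:89181254-89181312 of GRCr8.
Mmp3: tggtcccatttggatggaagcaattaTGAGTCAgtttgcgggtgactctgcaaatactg
Mmp10: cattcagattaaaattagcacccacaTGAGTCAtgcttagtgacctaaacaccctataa
Mmp13: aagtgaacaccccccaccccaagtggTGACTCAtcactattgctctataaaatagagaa
Plaur: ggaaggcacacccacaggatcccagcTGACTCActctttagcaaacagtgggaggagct
Mmp1 also held a match, 84 bases before the start, and its change is not reported here. Among the genes shown, the same letters stood at a like distance in genes that were higher and in a gene that was lower. Mmp10, a second stromelysin named here for its sequence after its values were seen, went from 84.5 and 87.8 CPM to 115 and 120 CPM in WT, from 0.265 and 0.596 CPM to 15.8 and 16.4 CPM in VAMP7KO, and from 10.7 and 11.6 CPM to 36.9 and 37.5 CPM in ATG5KO. Its log2 fold change was 1.79 (SE 0.46). Mmp13, with the match 66 bases before the start, was lower at -3.42.

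Among genes of fatty acid use 10 of 14 were lower in replicates 3 and 4 and none was higher, 71.4% beside 38.2% of genes with a symbol, with a median log2 fold change of -0.94 beside -0.38. Besides Pdk4, Slc27a6, a fatty acid transporter, was lower at -3.22, with 20.6 and 22.3 CPM against 2 and 2.52 CPM in WT and no count in any knockout library. Acadsb, an acyl-CoA dehydrogenase, was lower at -0.42 (SE 0.06) in every genotype, from 41.2 and 47 CPM to 32.7 and 35.8 CPM in WT.

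Interferon-induced genes were lower in 12 of 30 members and higher in 1, 40% and 3.33%, near the shares of genes with a symbol for the lower direction. Their summed level did not move alike in the genotypes. It went from 727 and 728 CPM to 397 and 413 CPM in WT and from 788 and 750 CPM to 722 and 741 CPM in ATG5KO. In VAMP7KO it was higher in replicates 3 and 4, at 309 and 311 CPM against 333 and 328 CPM. Psmb9, an immunoproteasome subunit, was lower at -0.84 (SE 0.09) and Parp10, an ADP-ribosyltransferase, at -0.71 (SE 0.09). Targets of NF-kB were lower in 6 of 20 (30%) and higher in 2 (10%), each below the share of genes with a symbol. Ikbke, a kinase of the interferon and NF-kB pathways, was lower at -1.07, and Lcn2, a secreted iron-binding protein of injured tubule cells, was higher by 1.58. Of 12 immediate early genes 5 were lower (41.7%, near the share of genes with a symbol) and 1 was higher (8.33%). Zfp36l1, an RNA-binding protein of AU-rich transcripts, was lower at -0.7. Rgs2, a regulator of G protein signals, was lower at -3.35, with levels of 1.29 CPM or less and no count in ATG5KO.

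Genes of the contractile cytoskeleton were split, 5 higher and 6 lower of 20 (25% and 30%, beside 13.2% and 38.2% of genes with a symbol). Flnc, a filamin, was higher by 1.09 (SE 0.1), from 150 and 159 CPM to 383 and 397 CPM in WT, and Tpm1, a tropomyosin, by 0.83 (SE 0.11). Lmod1, an actin nucleator of smooth muscle, was lower at -1.67, with ATG5KO at 14.5 and 20.4 CPM against 5.37 and 6.71 CPM. In WT it was at 0.0678 CPM or less, below the floor. Targets of YAP were higher in 3 of 8 (37.5%) and lower in 1 (12.5%). Thbs1, a thrombospondin, was among the former, higher by 0.82. Thbs1 went from 248 and 260 CPM to 727 and 731 CPM in WT and overlapped between the sets in VAMP7KO, at 2010 to 2170 CPM in all 4 libraries.

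Secreted growth factors and chemokines were higher in 8 and lower in 7 of 33 (24.2% and 21.2%, beside 13.2% and 38.2% of genes with a symbol). Angpt1, a ligand of the endothelial receptor Tie2, was lower at -0.82 (SE 0.06), from 37.8 and 42.1 CPM to 20.7 and 25.1 CPM in WT, from 85 and 87.4 CPM to 49.3 and 55.4 CPM in VAMP7KO, and from 103 and 104 CPM to 52.9 and 54.4 CPM in ATG5KO. Ptn, pleiotrophin, was lower at -2.96, a value that rests on WT and VAMP7KO, since no ATG5KO library had a count. Cxcl12, a chemokine of stromal cells, was lower at -1.99, with 35.1 and 39.2 CPM against 9.18 and 9.91 CPM in ATG5KO and near the floor elsewhere. Fgf1 was lower at -0.94. Complement genes were higher in 1 and lower in 3 of 11 (9.09% and 27.3%). Cd59, which blocks the membrane attack complex, was higher by 0.81 (SE 0.09) and Cfi, complement factor I, lower at -2.64.

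The smaller lists gave 2 higher and 4 lower of 10 (20% and 40%) for hypoxia and glycolysis. For ATF4 targets they gave 2 and 1 of 7 (28.6% and 14.3%). Counts were 2 and 2 of 6 (33.3% each) for AhR and NRF2 targets and 1 and 1 of 5 (20% each) for p53 targets. MHC class II had 1 and 1 of 6 (16.7% each) and the circadian clock 1 and 1 of 3 (33.3% each). Genes with a symbol had 13.2% higher and 38.2% lower. Pfkm, phosphofructokinase of muscle type, was lower at -1.15 (SE 0.06, adjusted p = 1.52e-08), from 46.7 and 53.3 CPM to 21.4 and 23.4 CPM in WT, from 58 and 62.9 CPM to 25 CPM in both VAMP7KO libraries, and from 130 and 149 CPM to 67.8 and 68.8 CPM in ATG5KO. Ak4, a mitochondrial adenylate kinase, was higher by 0.79. Gpt2, an alanine aminotransferase, was lower at -0.57, and Sesn2, a stress-induced inhibitor of mTORC1, was higher by 0.54, a call lost without the WT or the ATG5KO libraries (adjusted p = 0.0913 and 0.0652). Npas2, a clock activator, was higher by 0.53 and Usp2, a deubiquitinase of clock proteins, lower at -0.78. Gstm7, a glutathione transferase, was lower at -2.36 and Eda2r, a p53-induced receptor, at -1.12. The Eda2r call was lost without the WT libraries (-0.89, adjusted p = 0.0731), and within genotypes it passed in WT (adjusted p = 0.00562) but not in VAMP7KO (0.191) or ATG5KO (0.289).

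RT1-Db1 and RT1-Da, chains of MHC class II, passed at adjusted p = 0.0355 and 0.0136 with opposite signs, -0.47 and 1.15. Both lay mostly in WT, and both calls were lost when single libraries were left out: for RT1-Da without WT replicate 1 (adjusted p = 0.0777) or WT replicate 4 (0.056), and for RT1-Db1 without WT replicate 1 (0.0674), 2 (0.137), 3 (0.0886) or 4 (0.119), or without ATG5KO replicate 2 (0.0688) or 4 (0.0627).

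**Figure D5:**
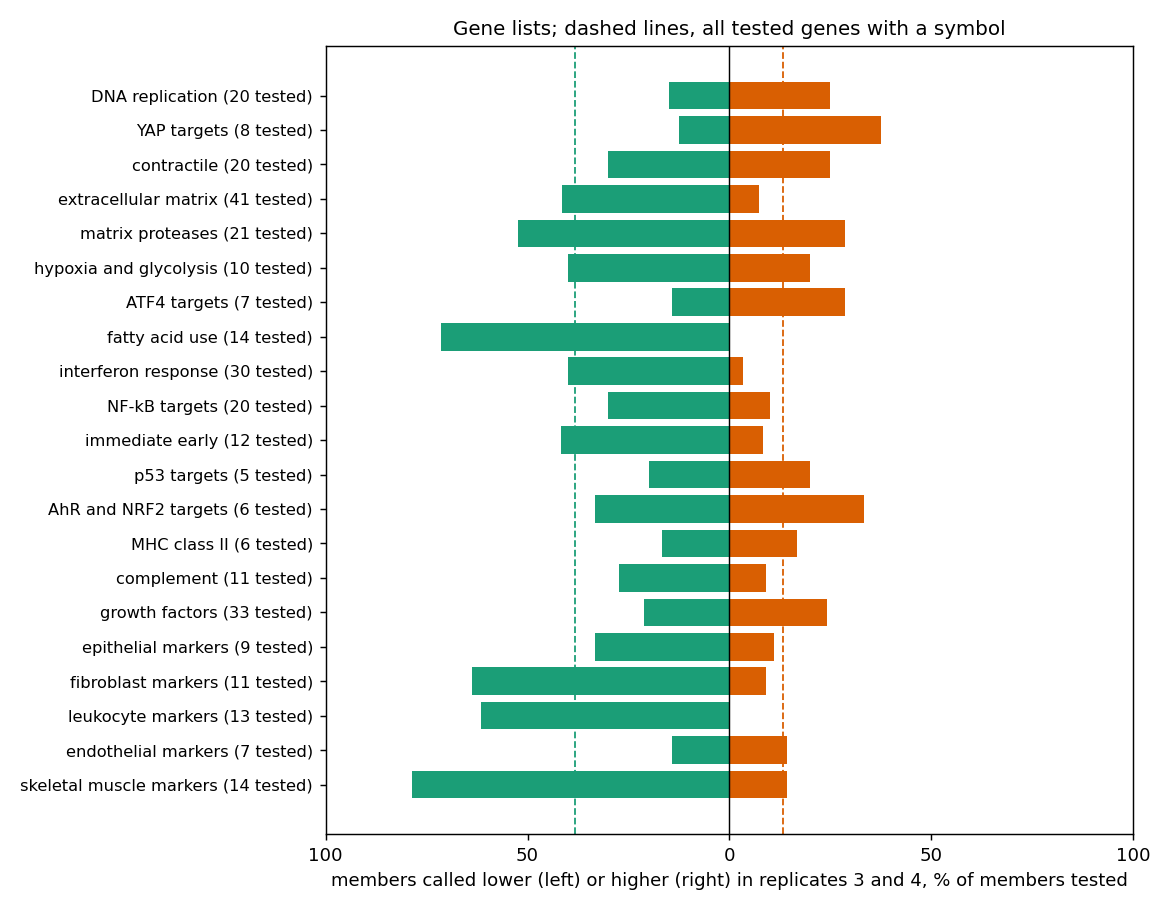
Share of tested members of each list called higher (right) or lower (left) in replicates 3 and 4, in percent, for lists with 5 or more members tested; dashed lines mark the 13.2% higher and 38.2% lower among the 1942 tested genes with a symbol. Skeletal muscle markers (78.6% lower), fatty acid use (71.4%) and fibroblast markers (63.6%) reach furthest left, and DNA replication has 25% higher and 15% lower.

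The labelled cell type was checked against markers. Only those with a symbol could be looked at, 9 of 18 epithelial and 11 of 16 fibroblast markers. Of 9 tested epithelial markers, Krt8, a keratin of simple epithelia, was at 451 to 871 CPM and Ppl, a plaque protein, at 97.7 to 416 CPM, while the other 7 had means over the 12 libraries of 5.06 CPM or less, among them Cdh16, a cadherin of kidney tubules, at 0.874 CPM. Transcripts of fibroblast markers were also present in every library, Col1a1 at 463 CPM or more and Col3a1 at 56.7 CPM or more. The markers seen thus did not single out the labelled type, and those without a symbol could not add to this. Krt8 did not pass between the sets (log2 fold change 0.14, adjusted p = 0.232), and Ppl was higher by 0.82 (SE 0.11). In bulk RNA, fewer cells of a type and less RNA per cell cannot be told apart.

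Marker levels of several cell types moved with the set. Fibroblast markers were lower in 7 of 11 (63.6%) and higher in 1 (9.09%), beside 38.2% and 13.2% of genes with a symbol. Their summed level was 1500 to 1550 CPM in WT replicates 1 and 2 and 599 to 615 CPM in replicates 3 and 4. It was 3121 to 3364 CPM against 1131 to 1190 CPM in VAMP7KO and 3995 to 4013 CPM against 2293 to 2421 CPM in ATG5KO. Col1a1, Col3a1 and Lum, described with the matrix genes, belong to both lists. Skeletal muscle markers were lower in 11 of 14 (78.6%) and higher in 2 (14.3%). Their sums were 55.7 to 59 CPM against 34.7 to 37.7 CPM in WT and 113 to 124 CPM against 52.4 to 55.4 CPM in VAMP7KO. In ATG5KO the sums were 179 to 191 CPM against 95.5 to 99.3 CPM. Neb, the giant thin-filament protein nebulin, was lower at -1.33 (SE 0.09) and gave 20.2 and 20.9 CPM against 9.04 and 9.27 CPM in WT.

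Leukocyte markers were lower in 8 of 13 (61.5%, beside 38.2% of genes with a symbol) and higher in none. Their sum overlapped between the sets in VAMP7KO, at 58.1 to 72.2 CPM against 58.3 to 62.2 CPM. In WT it was 164 to 185 CPM against 88 to 96.3 CPM and in ATG5KO 106 to 111 CPM against 95.3 to 101 CPM. Cd14 alone held most of the WT sum, at 125 and 148 CPM against 83.6 and 76.9 CPM. In ATG5KO most of it was Cd14, at 44.7 and 40.6 CPM against 46.3 and 45.9 CPM, with Fcgr2a, at 33.8 and 35.1 CPM against 34.1 and 31.9 CPM. Ptprc, the defining surface marker of leukocytes, was at 12.4 and 12.6 CPM in WT replicates 1 and 2, at 2.75 and 3.2 CPM in WT replicates 3 and 4, and at 0.0684 CPM or less, below the floor, in every knockout library. Epithelial sums were 873 to 948 CPM against 1257 to 1282 CPM in WT, 628 to 678 CPM against 689 to 700 CPM in VAMP7KO and 919 to 999 CPM against 1180 to 1220 CPM in ATG5KO. Endothelial sums were 19.6 to 20.1 CPM against 26.6 to 28 CPM in WT and 16.6 to 17.4 CPM against 23.7 to 24.2 CPM in VAMP7KO, higher in replicates 3 and 4 with no overlap, and 33.6 to 37.7 CPM against 35.1 to 39.2 CPM in ATG5KO, which overlapped. Of 7 endothelial markers 1 was higher and 1 lower (14.3% each). The part of these markers in the other differences between the sets was not tested.

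Single genes whose set difference was most particular to 1 genotype were mostly low, and values stand in place of folds where libraries were at the floor. AC130970.1 was at 4.7 and 6.68 CPM in WT replicates 1 and 2 and had no count in WT replicates 3 and 4, while ATG5KO was at 0.327 to 0.874 CPM in all 4 libraries. Postn, the matrix protein periostin, was at 2.92 and 3.05 CPM against 0.36 and 0.533 CPM in WT and at 0.229 and 0.331 CPM against 4.06 and 5.02 CPM in VAMP7KO, with no count in ATG5KO. WT and VAMP7KO thus exchanged places between the sets. Csf1r, the receptor of macrophage colony-stimulating factor, was at 1.42 and 1.43 CPM against 0.0655 and 0.071 CPM in WT and at 1.93 to 3.46 CPM throughout ATG5KO.

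Lcp1, an actin-bundling protein of blood cells, was at 3.86 and 4.93 CPM against 8.34 and 8.35 CPM in ATG5KO and at 0 and 0.0458 CPM against 0.617 and 0.755 CPM in VAMP7KO. In WT it went the other way, from 0.271 and 0.452 CPM to 0.0355 and 0.0982 CPM, the latter at or below the floor. Thbd, thrombomodulin, was at 5.82 and 6.03 CPM against 10.5 and 10.7 CPM in ATG5KO and had no count in replicates 3 and 4 of either other line. Fmo9, a flavin monooxygenase, was at 2.16 and 2.58 CPM against 0.688 and 0.888 CPM in WT and at 2.3 and 3.39 CPM against 0.326 and 0.763 CPM in ATG5KO. In VAMP7KO it had no count in replicates 1 and 2 and was at 0.288 and 0.617 CPM in replicates 3 and 4. The interaction calls of Trpv2, a cation channel, Sult1b1, a sulfotransferase, and Slc35d2, a nucleotide-sugar carrier, depended on single libraries. They were lost for Trpv2 without WT replicate 3 or 4 (adjusted p = 0.0849 and 0.072), for Sult1b1 without VAMP7KO replicate 1 or 4 (0.0571 and 0.167) and for Slc35d2 without ATG5KO replicate 2 or 3 (0.0764 and 0.141).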

How the data were processed

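The authors trimmed the reads of polyA-selected, stranded libraries (600 ng of RNA each) with cutadapt, removed rRNA reads with bowtie, used STAR for the alignment to mRatBN7.2 and htseq-count with Ensembl annotation for the quantification. They deposited raw counts, not normalized, for 20842 genes, each with at least 1 count. Multi-mapping reads of near-identical genes may be lost in such counts. A separator missing from the header was restored by position. Set and genotype came from the labels. The members and lists were chosen with earlier results of these data known.

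The main test was edgeR 4.0.16 (limma 3.58.1, R 4.3.3), quasi-likelihood F test with TMM, on 13860 genes kept by filterByExpr, with genotype and set as terms. A model with 1 mean per genotype and set gave the differences within genotypes and their interaction. The standard error was the log2 fold change over the square root of F. P-values were adjusted by Benjamini-Hochberg over all genes tested. In the model with 1 mean per genotype and set they measure the spread between libraries. In the main test that spread also holds differences between genotypes in the set change. Fitted fold changes of genes at the floor depend on edgeR's prior count and are no bounds. Single values were compared by an exact permutation test. Named genes had a symbol, an adjusted p under 0.05, at least 1 CPM on average and sets apart in the same direction in each genotype: the 12 highest and 12 lowest. For each genotype, the 4 genes with an interaction and the largest difference from the other genotypes were added, with the list members of smallest p, and Vamp7, Kcnj16 and Mx2. Mmp10, Clspn, Gmnn, Tcf19, Neb, Ppl, Krt8 and Col3a1 were added after their values were seen, as were both motifs. Where the study chose genes on these libraries, as for every symbol, the lists are not independent of them. Alternatives used DESeq2 1.42.0. The scripts were tested on simulated data. Python 3.11.15 and matplotlib 3.10.9 drew the figures. Some list members, and the sterol synthesis list, are not reported here.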

Additional observations from a re-analysis of the deposited data

Results flagged for a closer look

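The difference between replicates 3 and 4 and replicates 1 and 2 was not the same in WT, VAMP7KO and ATG5KO for 4373 genes (edgeR's quasi-likelihood F test of genotype and set, adjusted p under 0.05). That is 31.6% of genes tested and 38.9% of those with a symbol. Of the 87 genes named in the report, 61 are among them. The 87 include 9 picked because their interaction was called and others added after their values were seen. The count of 61 is therefore partly set by the choice of genes. Each of the 61 is given with its interaction adjusted p from edgeR. For the genes with the largest differences these were 0.00018 for Il1rl1, 1.4e-09 for Mmp3, 0.0016 for Actg2, 0.0056 for Slc14a1, 1.4e-09 for Ms4a6bl, 0.0087 for Ptgr1, 0.0048 for Jaml, 0.02 for Ido2, 2.4e-06 for Aqp1, 2.2e-07 for Kcnj16, 0.016 for Krt14, 0.00044 for Cilp, 0.0015 for LOC681458, 0.049 for Ttc22, 0.013 for Ca3 and 0.00027 for Mx2. Genes picked for 1 genotype had 7.7e-05 for AC130970.1, 7.8e-05 for Csf1r, 0.00017 for Lcp1, 0.013 for Trpv2, 0.00018 for Fmo9, 0.017 for Sult1b1, 1.6e-07 for Postn, 2e-04 for Thbd and 0.016 for Slc35d2. In DNA replication and mitosis they were 1.4e-07 for Cdc6, 1.4e-07 for Asf1b, 1.8e-06 for Dtl, 5.1e-06 for Fignl1, 2e-07 for Pola2, 0.029 for Tk1 and 1.4e-08 for Cenpu. Cytoskeletal, matrix and protease genes had 1.6e-07 for Thbs1, 0.00034 for Flnc, 4.5e-05 for Tpm1, 0.029 for Lum, 0.00055 for Emilin1, 5e-06 for Thbs3, 7.8e-05 for Col1a1, 0.00087 for Mmp13 and 0.00076 for Plaur. Metabolic, stress and immune genes had 6.7e-05 for Gpt2, 1.2e-06 for Sesn2, 0.011 for Parp10, 0.019 for Ikbke, 0.00031 for Lcn2, 0.00017 for Zfp36l1, 0.021 for Usp2, 0.033 for Npas2, 3.4e-05 for Gstm7, 0.0023 for Cd59, 0.013 for Cfi, 0.00071 for Fgf1 and 0.02 for Vamp7. The remaining genes had 1.3e-10 for Mmp10, 1.3e-07 for Clspn, 7e-05 for Gmnn, 2e-05 for Tcf19, 5.1e-06 for Ppl, 0.00064 for Krt8 and 2.2e-10 for Col3a1. What these differences come from was not tested.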

How the results depend on the processing

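Across 23 alternatives, the count of genes that differed between the sets stayed within 1.5 times of 8524 except in 2. Without the genotype term it was 5414 (2675 lower, and 985 lower by a fold of 2), and with the 2 libraries of each set summed within a genotype it was 4517 (2226 higher and 2291 lower), a fit with fewer samples. Leaving out each library in turn gave 8023 to 8513 genes (2114 to 2360 by a fold of 2), 3235 to 5187 genes with an interaction, and 6970 to 8676 genes within WT, 6136 to 7652 within VAMP7KO and 5345 to 7329 within ATG5KO. DESeq2's Wald test called 8502 genes and its likelihood ratio test 4224 interactions. Library totals in place of TMM moved the median of all genes from -0.03 to -0.09 and the share higher among called genes from 47.6% to 42.2%. Of the 75 named genes called between the sets, 32 kept call and direction in all 23 alternatives. Postn reversed without the VAMP7KO libraries (log2 fold change -2.71, adjusted p = 0.00162, with adjusted p from 0.00014 to 0.959 over its alternatives) and Thbd by DESeq2's Wald test (-2.48, adjusted p = 0.0381, with 0.0381 to 0.991 over its alternatives), and neither was called in the main comparison. Libraries of equal number were compared by the correlation of their deviations from the mean of genotype and set. In replicates 1 and 2 it was 0.275 for WT with VAMP7KO, 0.11 for WT with ATG5KO and 1e-04 for VAMP7KO with ATG5KO. In replicates 3 and 4 the values in that order were -0.0367, 0.0404 and -0.0341. A pairing by number beyond the set was thus not seen in replicates 3 and 4, and in replicates 1 and 2 it differed between pairs of lines. With the replicate block 8149 genes differed between the sets and 5042 had an interaction, and among the named genes the call of RT1-Db1 was lost (adjusted p = 0.0666). Depth limits genes near 3 counts per library, about 0.1 CPM.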
